A study of Arabidopsis thaliana with 47 samples.

Results

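Transcripts of 10 genes of the abscisic acid response were followed in RNA-seq counts from leaves and from cultured leaf mesophyll protoplasts (cells of the inner leaf whose walls were digested away) of Arabidopsis thaliana Columbia-0. The genes were picked by name for their known roles, with earlier results of these data known, and are RD29A (AT5G52310), RD29B (AT5G52300), RAB18 (AT5G66400), LTI30 (AT3G50970), COR15A (AT2G42540), NCED3 (AT3G14440), ABI1 (AT4G26080), ABI2 (AT5G57050), HAI1 (AT5G59220) and ABI5 (AT2G36270), or 10 of the 28197 loci listed. Splice variant 1 stood for each gene. All 10 had enough counts to be tested in each of the 3 experiments.

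The 47 libraries formed 12 groups. No label names an experiment. The 3 experiments here are sets of replicate numbers, told apart because their files list 36081, 33565 and 32648 splice variants. Replicates 1 to 3 held rosette leaves of plants aged 23 days, freshly isolated protoplasts (Day 0), and protoplasts after 14 days of culture in the control medium or with MB-3, an inhibitor of histone acetyltransferases. Replicates 4 to 8 held 5 libraries of Day 0 and 3 each of the control at Days 2, 4 and 6, of MB-3 at Days 4 and 6, and of yucasin, an inhibitor of auxin synthesis, at Days 4 and 6. Replicates 9 to 11 held Day 0, the Day 4 control and protoplasts kept for 4 days in medium without the synthetic auxin 2,4-D. Every other group had 3 libraries. Within replicates 4 to 8, cultures of Days 2 and 4 were numbers 4 to 6 and those of Day 6 were numbers 6 to 8. Changes between Days 4 and 6 thus also set different replicates against each other. All protoplasts came from leaves of plants of that age, and all cultures were kept in alginate gel, in the dark, in a medium with mannitol and the cytokinin thidiazuron (176 µg/L); all but those lacking it had 1 mg/L 2,4-D. The libraries are bulk samples of cultures in which only some protoplasts divide, so fewer cells of a type and less RNA per cell cannot be told apart. The study's methods call the libraries of a time point biological replicates, and no label says which plants or cultures each came from, so the p-values measure the spread between these libraries.

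Abscisic acid is the plant hormone of water shortage and salt stress. It is made from carotenoids by a cleavage step that NCED enzymes carry out, and it binds PYR/PYL receptors, which then hold back type 2C protein phosphatases. This frees SnRK2 kinases to activate bZIP transcription factors, and these bind the element ABRE in the promoters of effector genes. Cold and drought act in part through other factors, the CBF and DREB2 proteins, which bind the element DRE. In leaves the hormone is best known for closing stomata and for inducing proteins that protect cells against drying.

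Among the 10 genes, 5 encode such effectors. RD29A and RD29B are neighbouring genes for hydrophilic proteins induced by dehydration, RAB18 and LTI30 encode dehydrins, and COR15A encodes a protein that protects chloroplast membranes in the cold. NCED3 encodes the cleavage enzyme that rises in drying leaves. ABI1, ABI2 and HAI1 encode type 2C phosphatases that brake the pathway and are themselves induced by it. ABI5 encodes a bZIP factor best known from seeds and young seedlings. COR15A has a near copy next to it, COR15B. The study's methods describe the mapped reads as unique, and how reads at overlapping loci were counted is not given in the sources used here, so the split between near copies is uncertain.

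The promoters of the 5 effector genes are shown because 3 of them were called higher with MB-3 at Day 14. Each is the 300 bases before the start of the gene in the RefSeq annotation of TAIR10.1, 5′ to 3′ on the strand of the gene. Capitals mark matches on either strand to ABRE, searched as ACGTGNC, or to the core of DRE, searched as CCGAC.
RD29A (chr5:21240417-21240716, plus strand): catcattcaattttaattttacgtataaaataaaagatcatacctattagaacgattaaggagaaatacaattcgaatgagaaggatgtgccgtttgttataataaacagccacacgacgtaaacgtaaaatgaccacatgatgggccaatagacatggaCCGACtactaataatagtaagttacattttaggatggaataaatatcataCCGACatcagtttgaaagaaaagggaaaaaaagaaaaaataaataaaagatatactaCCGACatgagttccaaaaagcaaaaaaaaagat
RD29B (chr5:21236721-21237020, plus strand): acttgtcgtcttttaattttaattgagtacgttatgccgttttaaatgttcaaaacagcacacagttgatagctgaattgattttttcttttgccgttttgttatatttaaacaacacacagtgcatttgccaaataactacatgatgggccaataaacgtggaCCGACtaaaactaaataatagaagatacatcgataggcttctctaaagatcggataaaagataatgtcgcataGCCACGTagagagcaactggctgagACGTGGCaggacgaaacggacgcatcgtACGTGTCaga
RAB18 (chr5:26519448-26519747, minus strand): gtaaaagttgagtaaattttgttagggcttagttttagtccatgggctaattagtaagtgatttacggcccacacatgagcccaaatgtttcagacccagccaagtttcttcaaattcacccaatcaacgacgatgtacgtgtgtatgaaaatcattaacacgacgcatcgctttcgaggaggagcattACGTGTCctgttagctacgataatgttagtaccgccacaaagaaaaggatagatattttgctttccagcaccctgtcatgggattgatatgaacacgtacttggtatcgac
LTI30 (chr3:18940343-18940642, plus strand): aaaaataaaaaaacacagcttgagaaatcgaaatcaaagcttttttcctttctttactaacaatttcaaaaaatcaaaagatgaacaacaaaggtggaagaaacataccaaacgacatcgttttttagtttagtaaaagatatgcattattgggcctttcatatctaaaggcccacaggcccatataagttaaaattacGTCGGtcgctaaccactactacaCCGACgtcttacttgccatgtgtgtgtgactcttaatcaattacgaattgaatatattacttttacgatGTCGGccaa
COR15A (chr2:17712331-17712630, minus strand): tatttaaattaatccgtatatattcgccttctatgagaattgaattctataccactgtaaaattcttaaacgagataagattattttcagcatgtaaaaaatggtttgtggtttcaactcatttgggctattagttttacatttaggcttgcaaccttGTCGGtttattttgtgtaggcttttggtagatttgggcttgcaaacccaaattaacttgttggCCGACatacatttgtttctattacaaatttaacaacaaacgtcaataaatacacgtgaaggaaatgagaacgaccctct
RD29B had 3 matches to ABRE and 1 to DRE, and RAB18 had 1 match to ABRE. RD29A and LTI30 had 3 matches to DRE each and COR15A had 2. Of the other genes, ABI5 had 4 matches to ABRE, some of them overlapping, and ABI1 had 1. In all, 4 of the 10 genes held ABRE, against 9.46% of 27443 promoters of the same length, and 4 held the core of DRE, against 13.9%. All 10 held the shorter ACGT core, against 49.0% of promoters. A match is a description of the letters, and no match says only that these letters are not in this window.

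The files gave between 4338234 and 19132178 mapped reads per library, with a median of 8457657. The summed counts of splice variant 1 were 1.02 to 1.05 times the mapped reads in all 47 libraries, so some reads were counted at more than 1 locus. Levels are given as CPM, which are counts of splice variant 1 per 1000000 counted, scaled within each experiment by TMM, edgeR's trimmed mean of log ratios, so that levels of different experiments are not on one scale. The floor of detection was set at 3 counts, which is 0.15 to 0.67 CPM before that scaling. Day 0 libraries had TMM factors of 0.49 to 0.67 and cultures of 0.91 to 1.39. Scaling by total counts instead raised the median over all genes of the log2 fold change against Day 0 by 0.76 to 1.30 and lowered that of Day 0 against leaf by 1.03, so every comparison with Day 0 is relative to the scaling. In 6 libraries of replicates 1 to 3 (all 3 leaf libraries, Day 0 replicate 3, and Day 14 control replicates 1 and 3), 29.4% to 83.6% of 2166 loci silent in the other experiments had reads, against 0.69% to 9.19% in the other 6. The 5 markers of the mesophyll summed to 1122 to 3243 CPM at Day 0 and 141 to 176 CPM in the Day 14 control, against 11172 to 27142 CPM in leaf, and markers of the epidermis fell from 434 to 702 CPM in leaf to 2.14 to 6.37 CPM at Day 0. A gene is called changed if its log2 fold change exceeds 2 in size while p and the p adjusted by Benjamini-Hochberg are under 0.01. Both come from the quasi-likelihood test of edgeR, fitted across all genes of an experiment, as do all adjusted p-values given. Counts of genes with an unadjusted p under 0.05 are given without the share of all genes at that p, so whether they exceed that share is not known here. Errors of levels are SD over libraries. Errors of log2 fold changes are approximate SE, the size of the change over the square root of the test's F statistic.

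Day 0 was set against leaf to ask which transcripts differ after isolation. ABI2, LTI30 and COR15A were higher in freshly isolated protoplasts than in leaf, and none of the 10 genes was called lower. Across all genes, 11.7% were called higher and 22.4% lower. ABI2 had 16.2, 30.5 and 33.3 CPM in the leaf libraries and 410.2, 406 and 455 CPM in the Day 0 libraries. These ranges lay far apart, and its log2 fold change of 3.99 ± 0.28 was the largest of the 10 (adjusted p = 1.05e-07, n = 3 per group). ABI1, which encodes the closest relative of ABI2, had 221, 217 and 232 CPM in leaf and 482, 529 and 421 CPM at Day 0. Its groups did not overlap either, but the rise of 1.10 ± 0.20 (adjusted p = 0.000352) was below the fold threshold. The ratio of ABI2 to ABI1 counts was 0.0731 to 0.144 in leaf and 0.768 to 1.08 at Day 0. HAI1, the remaining phosphatase gene, went from 82.3 ± 46.8 to 183 ± 58.8 CPM and was not called (adjusted p = 0.039).

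Of the 5 effector genes, 2 were called on isolation, and differences between the genes were not tested. LTI30 had 17.8, 56.0 and 14.2 CPM in leaf and 169, 112 and 306 CPM at Day 0, with a log2 fold change of 2.75 ± 0.54 (adjusted p = 0.000502). COR15A had 191, 479 and 255 CPM in leaf and 1656, 866 and 1468 CPM at Day 0 (2.11 ± 0.46, adjusted p = 0.00111). Every Day 0 library was above every leaf library for both genes. RAB18 had 48.0, 145 and 103 CPM in leaf and 111, 58.1 and 124 CPM at Day 0, and its groups overlapped (-0.01 ± 0.60, adjusted p = 0.991). RD29A had 403, 1861 and 763 CPM in leaf and 319, 257 and 544 CPM at Day 0, with leaf replicate 2 far above the others and overlap between the groups (-1.43 ± 0.47, adjusted p = 0.0158). RD29B had 1.64, 8.18 and 7.73 CPM in leaf and 24.5, 11.3 and 37.3 CPM at Day 0, without overlap, and its log2 fold change of 2.08 ± 0.73 missed the threshold on adjusted p (0.0215). NCED3 (1.09 ± 0.52, adjusted p = 0.0765) and ABI5 (1.36 ± 0.39, adjusted p = 0.00746) were not called. With total counts as the scale, ABI2 was still higher (2.96), LTI30 and COR15A were no longer called (1.62 and 1.02), and RD29A was called lower (-2.55). COR15A also lost its call without leaf replicate 1 (1.99), and RD29B gained one without Day 14 control replicate 2 (2.22) or without the filter on low counts (2.13).

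**Figure D1:**
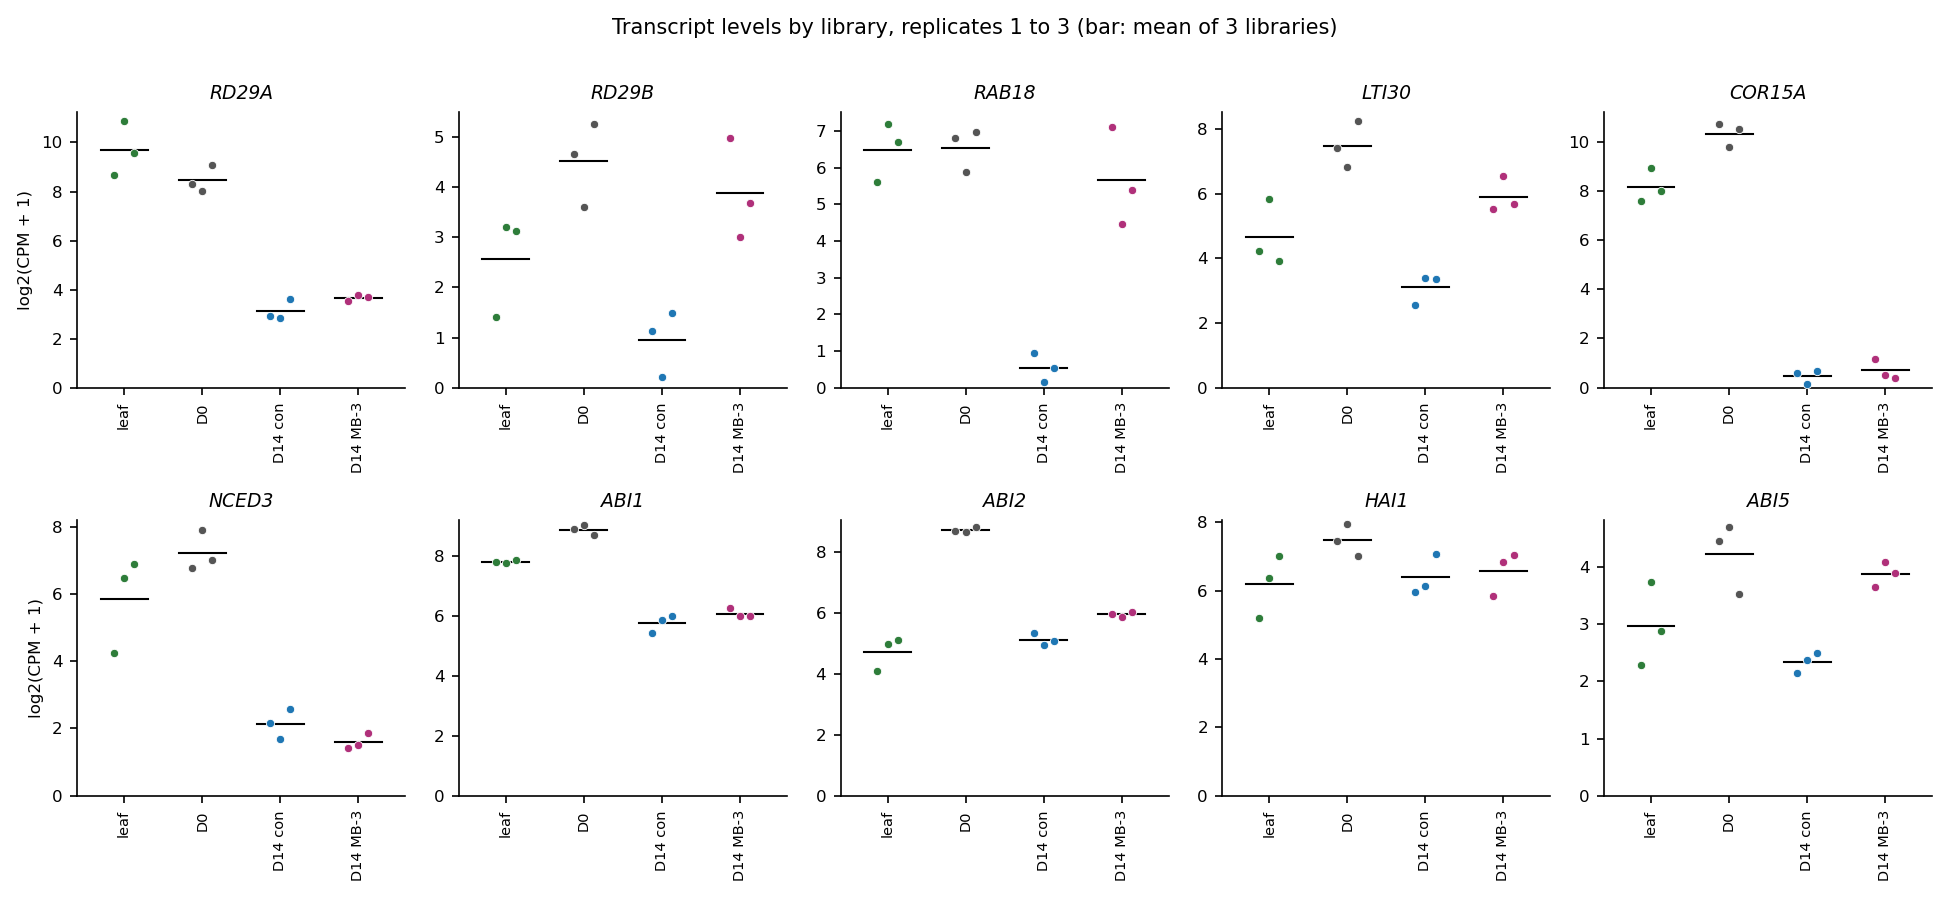
Levels of the 10 genes in replicates 1 to 3, as log2(CPM + 1) on the vertical axis of each panel, for leaf, Day 0 (D0), the Day 14 control (D14 con) and Day 14 with MB-3. Each point is a library and each bar the mean of 3 libraries. ABI2 was at 406 to 455 CPM at Day 0 and at 16.2 to 33.3 CPM in leaf, and RAB18 was at 20.9 to 138 CPM with MB-3 and at 0.104 to 0.926 CPM in the Day 14 control.

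The other genes of abscisic acid metabolism and signalling (62 listed, 51 tested) included 11 called higher and 4 called lower at Day 0, with a median log2 fold change of 0.41 against -0.56 for all genes. ABCG40, a gene for an importer of the hormone, was at 1.88 to 8.56 CPM in leaf and 8161 to 9813 CPM at Day 0 (log2 fold change 10.97 ± 0.72). The kinase gene OST1 (2.97 ± 0.16), the phosphatase gene HAB1 (2.33 ± 0.21), the bZIP factor gene ABF4 (2.53 ± 0.25) and DREB2A (5.64 ± 0.55), which encodes a factor that binds DRE, also rose. CYP707A4, one of the genes for enzymes that inactivate the hormone, rose by 4.38 ± 0.43, while CYP707A1 of the same family fell by 3.13 ± 0.59. Also called lower were ABCG25 (-6.20 ± 0.50), a gene for an exporter of the hormone, and CBF1 (-4.37 ± 1.16). Of the synthesis genes, ABA4 fell (-4.17 ± 0.54) while NCED9 (2.99 ± 0.53) and ABA3 (2.69 ± 0.30) rose. None of the 8 receptor genes tested was called. The markers of the epidermis, of guard cells (131 to 188 CPM in leaf, 4.08 to 6.16 CPM at Day 0) and of the vasculature (847 to 1118 and 13.3 to 25.98 CPM) fell on isolation beside these changes, and their part in them was not tested.

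The comparisons of Days 2, 4 and 6 with Day 0 in replicates 4 to 8 asked how levels change early in culture. Most of the 10 genes fell. At Day 2, 6 genes were called lower, at Day 4, 8 genes, and at Day 6, 9 genes, against 4.78%, 13.1% and 16.3% of all genes called lower on those days. None was called higher, against 18.5%, 25.3% and 27.5% of all genes. These comparisons share the 5 Day 0 libraries. The median log2 fold change of the 10 genes was -2.05, -3.49 and -4.21 at Days 2, 4 and 6, against 0.22, 0.32 and 0.34 over all genes. Mesophyll markers summed to 1623 to 4768 CPM at Day 0 and 355 to 530.2 CPM at Day 6, guard cell markers to 2.48 to 5.07 and 10.8 to 19.2 CPM, and vasculature markers to 8.94 to 26.7 and 34.6 to 36.6 CPM, and their part in these changes was not tested.

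ABI2 had the largest drop by Day 2. It was at 269 to 329 CPM, with a median of 319 CPM, in the Day 0 libraries, at 18.4, 24.8 and 12.4 CPM at Day 2, at 15.6, 13.1 and 11.4 CPM at Day 4 and at 13.7, 15.0 and 17.0 CPM at Day 6. The drop of 4.09 ± 0.22 on the log2 scale by Day 2 (adjusted p = 6.59e-14, n = 5 and 3) left 5.94% of the Day 0 mean, and the later groups overlapped with each other. ABI1 was at 302 to 457 CPM (median 377 CPM) at Day 0, at 75.4, 115 and 54.0 CPM at Day 2, at 34.4, 34.5 and 28.8 CPM at Day 4 and at 29.3, 27.9 and 28.2 CPM at Day 6. Days 4 and 6 overlapped, and its log2 fold changes against Day 0 were -2.24 ± 0.20, -3.56 ± 0.21 and -3.75 ± 0.22 (adjusted p of 3.59e-10, 1.6e-13 and 5.25e-14). The ratio of ABI2 to ABI1 was 0.59 to 1.06 at Day 0, 0.216 to 0.244 at Day 2 and 0.467 to 0.605 at Day 6.

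HAI1 was called lower at Day 2 alone. It was at 57.5 to 154 CPM (median 103 CPM) at Day 0, at 27.6, 32.8 and 22.9 CPM at Day 2, at 35.3, 30.2 and 28.3 CPM at Day 4 and at 72.2, 55.0 and 62.8 CPM at Day 6. The Day 6 libraries lay above those of Days 2 and 4 and overlapped with Day 0. It fell at Day 2 (-2.04 ± 0.25, adjusted p = 6.81e-08) and was not called at Day 4 (-1.86 ± 0.24) or Day 6 (-0.84 ± 0.23, adjusted p = 0.0015), and the Day 6 value turned to 0.27 with total counts as the scale. From Day 4 to Day 6 its log2 fold change was 1.02 ± 0.25 (adjusted p = 0.00351), below the fold threshold, and these days share only replicate 6. The Day 2 call was lost without Day 0 replicate 6 (-1.92), Day 0 replicate 7 (-1.90) or Day 2 control replicate 6 (-1.95), and HAI1 was called at Day 4 without Day 0 replicate 4 (-2.03).

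**Figure D2:**
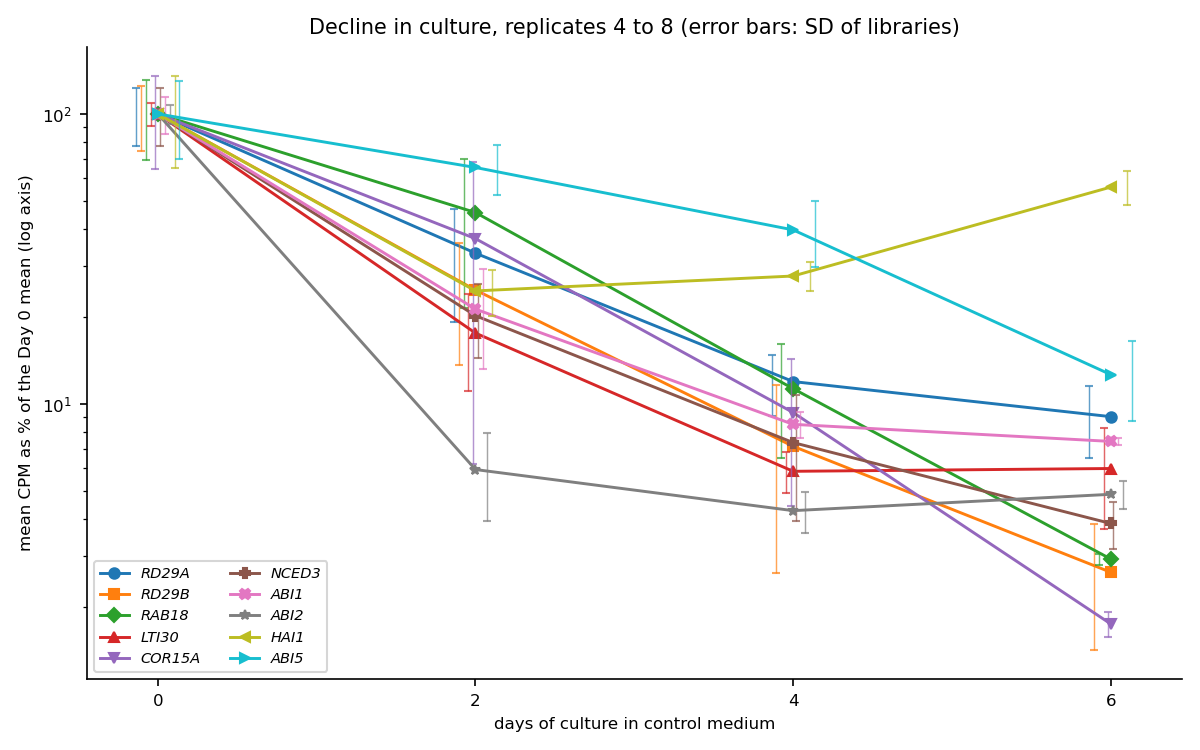
Mean level of each gene in the control culture of replicates 4 to 8 as a percentage of its Day 0 mean, on a log axis, against days of culture, with error bars of SD over 5 libraries at Day 0 and 3 elsewhere, drawn side by side. ABI2 was at 5.94% by Day 2, COR15A reached 1.74% at Day 6, and HAI1 was at 24.5% at Day 2 and 56.0% at Day 6.

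The 5 effector genes were all called lower at Days 4 and 6. RAB18 was at 51.4 to 113 CPM (median 71.0 CPM) at Day 0, at 33.3, 53.9 and 17.0 CPM at Day 2, at 10.7, 10.7 and 4.40 CPM at Day 4 and at 2.16, 2.33 and 2.17 CPM at Day 6. Day 2 overlapped with Day 0 and the later days did not, with log2 fold changes of -1.14 ± 0.31, -3.14 ± 0.35 and -5.08 ± 0.41. COR15A was at 579 to 1413 CPM (median 798 CPM) at Day 0, at 249.8, 633 and 103 CPM at Day 2, at 91.3, 121 and 35.6 CPM at Day 4 and at 17.0, 14.1 and 15.1 CPM at Day 6. Its spread between Day 2 libraries was wide, so that a log2 fold change of -1.43 ± 0.53 did not reach the threshold (adjusted p = 0.0176), and it was called without Day 2 control replicate 5 (-2.33). LTI30 had dropped to 45.5, 40.9 and 20.7 CPM at Day 2 from 186 to 235 CPM (median 196 CPM) at Day 0, and was at 13.9, 10.1 and 11.8 CPM at Day 4 and 17.3, 11.2 and 8.07 CPM at Day 6. Its log2 fold changes were -2.51 ± 0.27, -4.10 ± 0.30 and -4.06 ± 0.30, and Days 4 and 6 overlapped.

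RD29A and RD29B lie side by side, and the difference between them was not tested. RD29A was at 215 to 389.8 CPM (median 335 CPM) at Day 0, at 104, 145 and 58.6 CPM at Day 2, at 36.8, 28.4 and 45.9 CPM at Day 4 and at 34.6, 30.0 and 19.4 CPM at Day 6, or 9.04% of the Day 0 mean (log2 fold change -3.47 ± 0.35). RD29B was at 12.2 to 23.0 CPM (median 16.9 CPM) at Day 0, at 4.19, 6.01 and 2.27 CPM at Day 2, at 1.81, 1.44 and 0.349 CPM at Day 4 and at 0.372, 0.283 and 0.673 CPM at Day 6, or 2.63% of the Day 0 mean (-5.22 ± 0.55). At Day 6 the RD29B values rested on 4 to 9 counts per library. Its Day 2 call (-2.06 ± 0.42) was lost without Day 0 replicate 5 (-1.91) or Day 2 control replicate 6 (-1.78).

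NCED3, the synthesis gene, was at 67.4 to 127 CPM (median 122 CPM) at Day 0, at 21.6, 28.7 and 16.2 CPM at Day 2, at 7.40, 12.1 and 4.75 CPM at Day 4 and at 3.42, 4.95 and 4.41 CPM at Day 6. The groups did not overlap with Day 0 and it was called lower on all 3 days (-2.33 ± 0.28, -3.75 ± 0.31 and -4.69 ± 0.33). ABI5 was at 6.01 to 12.4 CPM (median 9.38 CPM) at Day 0, at 5.11, 5.42 and 7.26 CPM at Day 2, at 3.55, 4.57 and 2.72 CPM at Day 4 and at 0.744, 1.27 and 1.42 CPM at Day 6. It overlapped with Day 0 at Day 2 and was called lower only at Day 6 (-2.96 ± 0.30, adjusted p = 2.15e-09), which total counts as the scale turned below the fold threshold (-1.86). With that scaling 1, 8 and 8 genes were called lower at Days 2, 4 and 6. ABI2 was the gene called at Day 2 (-3.31).

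Steps between neighbouring days were mostly too small to be called, and Days 4 and 6 share only replicate 6. From Day 2 to Day 4 none of the 10 genes was called by edgeR or DESeq2, against 8.60% of all genes called. Of the 10, 9 had an unadjusted p under 0.05, and the share of all genes at that p is not given here. RAB18 (-2.00 ± 0.36, adjusted p = 5.58e-05) and COR15A (-1.99 ± 0.58, adjusted p = 0.00529) lay at the fold threshold. RAB18 passed it in edgeR's likelihood-ratio test (-2.01) and without Day 2 control replicate 4 (-2.00) or 6 (-2.31) or Day 4 control replicate 4 (-2.15) or 5 (-2.17), and COR15A without Day 2 control replicate 4 (-2.14) or 6 (-2.40) or Day 4 control replicate 5 (-2.35). From Day 4 to Day 6 COR15A was the 1 gene called (-2.42 ± 0.60, adjusted p = 0.00378), against 1.83% of all genes called lower and 1.60% called higher. It was not called with the replicate number as a block (-1.57), or without Day 4 control replicate 4 (-2.30) or 5 (-2.00) or any 1 Day 6 library (-2.32 to -2.45), and RAB18 was called without Day 4 control replicate 6 (-2.21).

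**Figure D3:**
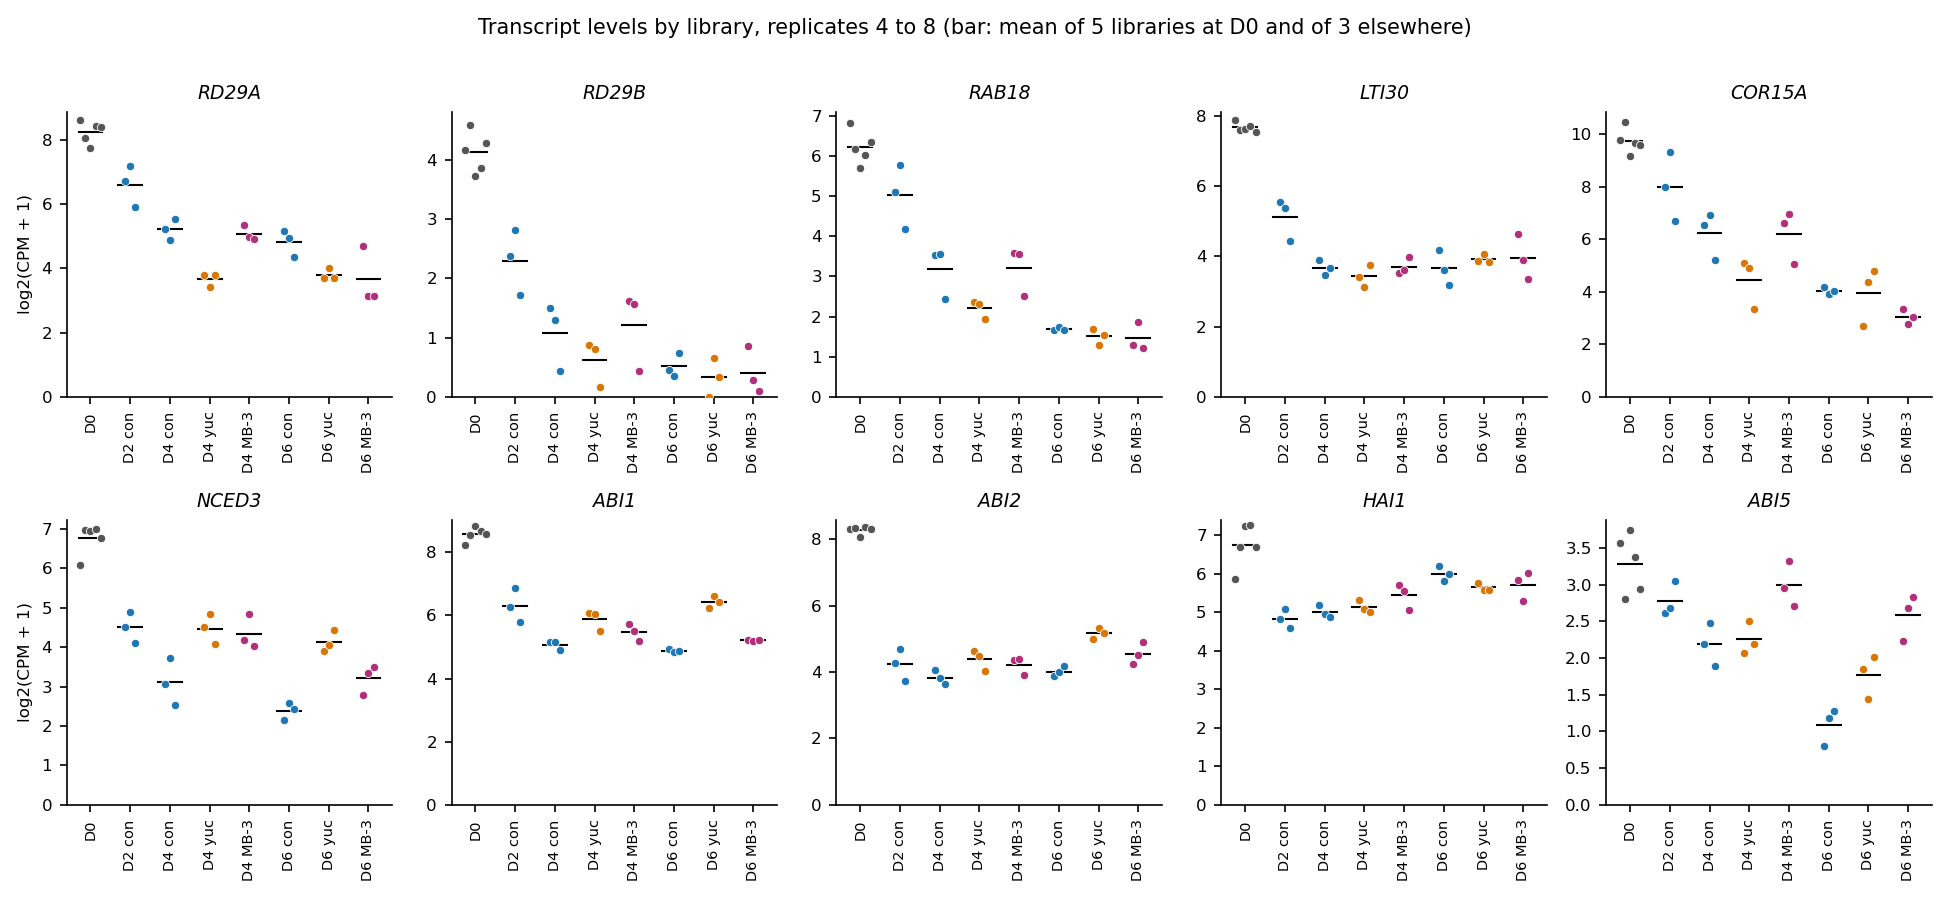
Levels of the 10 genes in replicates 4 to 8, as log2(CPM + 1) on the vertical axis of each panel, for Day 0 and for control (con), yucasin (yuc) and MB-3 cultures at Days 2, 4 and 6. Each point is a library and each bar the mean of 5 libraries at Day 0 and of 3 elsewhere. NCED3 was at 3.42 to 4.95 CPM in the Day 6 control and at 14.0 to 20.5 CPM with yucasin, and ABI5 was at 0.744 to 1.42 CPM in the Day 6 control and at 3.70 to 6.16 CPM with MB-3.

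Around the 10 genes, most of the other effector genes were called lower from Day 4, and the receptor genes that were called rose. Genes of hormone synthesis and of inactivation moved both ways. Of the 46 other abscisic acid genes tested, 3 were called higher and 6 lower at Day 2, 6 and 20 at Day 4, and 8 and 15 at Day 6. Of 9 other effector genes tested, 8 were called lower at Day 4 and 6 at Day 6, where COR15B (-5.78 ± 0.45), COR47 (-4.82 ± 0.44) and KIN2 (-4.54 ± 0.34) fell. CYP707A1, whose product inactivates abscisic acid, went from 0.146 to 0.746 CPM at Day 0 to 33.1 to 38.9 CPM at Day 2 (log2 fold change 6.30 ± 0.33) and was at 14.5 to 21.8 CPM at Day 6, whereas CYP707A4 of the same family fell by 5.88 ± 0.42 by Day 6. The receptor gene PYL6 had at most 3 counts in any Day 0 library and 13.2 to 28.6 CPM at Day 2. PYL4, another receptor gene, rose by 2.80 ± 0.25 at Day 2. OST1 (-3.12 ± 0.23 at Day 6) and ABCG40 (-7.51 ± 0.42) fell. Among synthesis genes at Day 6, NCED5 (4.77 ± 1.44) and NCED2 (3.83 ± 0.36) were called higher. NCED5 lay near the floor, with no count in any Day 0 library and a mean of 1.13 CPM at Day 4, against a floor of up to 0.724 CPM at Day 0. NCED9 (-4.56 ± 0.36) was called lower, and there were others in each direction.

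The Day 14 cultures asked what inhibition of histone acetyltransferases by MB-3 changes after 14 days. RAB18, RD29B and LTI30 were higher with MB-3 than in the control, and RD29A and COR15A, the other effector genes, were not called. Of all genes 1.77% were called higher and 3.51% lower. RAB18 had 0.926, 0.104 and 0.454 CPM in the control, from 7, 2 and 9 counts, and 138, 20.9 and 40.8 CPM with MB-3. The lowest library with MB-3 was far above the highest control, and the log2 fold change was 7.30 ± 0.89 (adjusted p = 0.000134, n = 3 per group). RD29B had 1.19, 0.156 and 1.82 CPM in the control, from 9, 3 and 36 counts, and 30.6, 7.07 and 11.9 CPM with MB-3 (3.95 ± 0.81, adjusted p = 0.00414). LTI30 had 4.89, 9.48 and 9.28 CPM in the control and 45.1, 92.9 and 49.9 CPM with MB-3 (2.96 ± 0.55, adjusted p = 0.00225). For both genes every library with MB-3 was above every control.

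COR15A was near the floor of detection in both cultures. It had 0.529, 0.104 and 0.605 CPM in the control, from 4, 2 and 12 counts, and 1.26, 0.442 and 0.325 CPM with MB-3, from 9, 5 and 4 counts, with overlap, and its log2 fold change was 0.62 ± 0.75 (adjusted p = 0.581). RD29A had 6.48, 6.09 and 11.1 CPM in the control and 10.6, 12.6 and 12.0 CPM with MB-3 (0.56 ± 0.49, adjusted p = 0.43). The ratio of RAB18 to COR15A was 0.0671 to 0.0845 at Day 0, 0.75 to 1.75 in the Day 14 control and 47.4 to 126 with MB-3. Whether the response to MB-3 differed between these genes was not tested. Among the genes of the brake, ABI2 (39.7, 29.8 and 32.6 against 61.5, 57.2 and 64.0 CPM, 0.84 ± 0.25, adjusted p = 0.0281) did not overlap between the groups but was not called. ABI5 had 3.44, 4.17 and 4.64 CPM in the control and 11.6, 16.0 and 13.9 CPM with MB-3, again without overlap, and its log2 fold change of 1.74 ± 0.38 (adjusted p = 0.00643) was below the fold threshold. ABI1 (0.31 ± 0.20), HAI1 (0.18 ± 0.45) and NCED3 (-0.78 ± 0.63) were not called.

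The call of RAB18 stood in each fit that left out a single library. RD29B lost its call, with log2 fold changes of 3.12 to 4.90, without Day 14 control replicate 1, 2 or 3 or MB-3 replicate 1 or 3, and LTI30 lost its call (2.51 to 3.06) without Day 14 control replicate 1, 2 or 3 or MB-3 replicate 2. Day 14 control replicates 1 and 3 had reads at 45.0% and 83.6% of the loci silent elsewhere, against 1.52% to 9.19% in the MB-3 libraries and 3.55% in control replicate 2, which had the lowest RAB18 and RD29B values. In a fit without the 6 libraries rich in such reads, chosen after the data had been seen and with 1 control library left, whose spread is assumed to equal that of the other groups, none of the 10 genes was called. The adjusted p was 0.0209 for RAB18 and 0.0229 for RD29B, whose control then rests on 2 and 3 counts, so that no fold is given, and 0.0182 for LTI30 (2.69). Guard cell markers summed to 14.6 to 22.6 CPM with MB-3 and 2.66 to 6.61 CPM in the control, with HT1 at 0 in all MB-3 libraries, and mesophyll markers to 135 to 379 and 141 to 176 CPM. Their part in these differences was not tested.

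Compared with Day 0, 9 of the 10 genes were called lower in the Day 14 control and 5 with MB-3, against 13.5% and 13.8% of all genes called lower. None of the 10 was called higher, against 20.5% and 18.4% of all genes, and both comparisons share the 3 Day 0 libraries. COR15A (-11.68 ± 0.72 in the control and -11.05 ± 0.71 with MB-3), NCED3 (-5.45 ± 0.63 and -6.23 ± 0.67) and RD29A (-5.55 ± 0.57 and -4.99 ± 0.55) were lower in both. ABI1 (-3.14 ± 0.22 and -2.83 ± 0.22) and ABI2 (-3.64 ± 0.27 and -2.80 ± 0.26) were also called lower in both cultures. RAB18 had -7.86 ± 0.90 in the control and -0.56 ± 0.60 with MB-3, RD29B -4.53 ± 0.82 and -0.58 ± 0.68, LTI30 -4.61 ± 0.58 and -1.64 ± 0.51, and ABI5 -2.20 ± 0.39 and -0.46 ± 0.37, each called lower in the control alone. With total counts as the scale the MB-3 values of RAB18, RD29B and ABI5 turned positive (0.71, 0.71 and 0.78), and 7 and 3 of the 10 genes were called lower. Of all 20205 genes tested, 1033 and 1133 were called lower on that scale, against 2720 and 2793 with TMM. On that scale ABI1 lost its call in both cultures (-1.84 and -1.57), ABI2 with MB-3 (-1.53) and ABI5 in the control (-0.92). LTI30 was called lower with MB-3 too without Day 0 replicate 2 (-2.06) or MB-3 replicate 2 (-2.18), and ABI5 lost its call in the control without Day 0 replicate 2 (-2.00). HAI1 was called in neither culture (-1.05 ± 0.46 and -0.87 ± 0.46), and both values turned positive with total counts (0.25 and 0.38).

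Against leaf, the Day 14 control had 5 of the 10 genes called lower and none higher, beside 12.1% of all genes called lower and 8.23% called higher. RAB18 (-7.87 ± 0.90), COR15A (-9.57 ± 0.68), RD29A (-6.98 ± 0.61) and NCED3 (-4.36 ± 0.60) fell far below leaf. ABI1 (-2.04 ± 0.21) was at the threshold and lost its call without 10 of the 12 single libraries, those other than leaf replicate 2 and Day 14 control replicate 3, with values of -1.83 to -1.98. ABI2 overlapped with leaf, with 29.8 to 39.7 CPM against 16.2 to 33.3 CPM (0.35 ± 0.25, adjusted p = 0.258), and HAI1 (0.10 ± 0.45), ABI5 (-0.84 ± 0.39) and LTI30 (-1.85 ± 0.53, adjusted p = 0.0108) were not called. RD29B (-2.45 ± 0.83, adjusted p = 0.0249) was not called either, but was called lower by DESeq2 (-2.48), by the likelihood-ratio test (-2.46) and without the filter on low counts (-2.41). Among other abscisic acid genes at Day 14, 5 of 51 were higher and 14 lower in the control than at Day 0, and CYP707A4 was the 1 gene that differed between MB-3 and control, with at most 1 count in any MB-3 library and 0.417 to 1.72 CPM in the control.

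**Figure D4:**
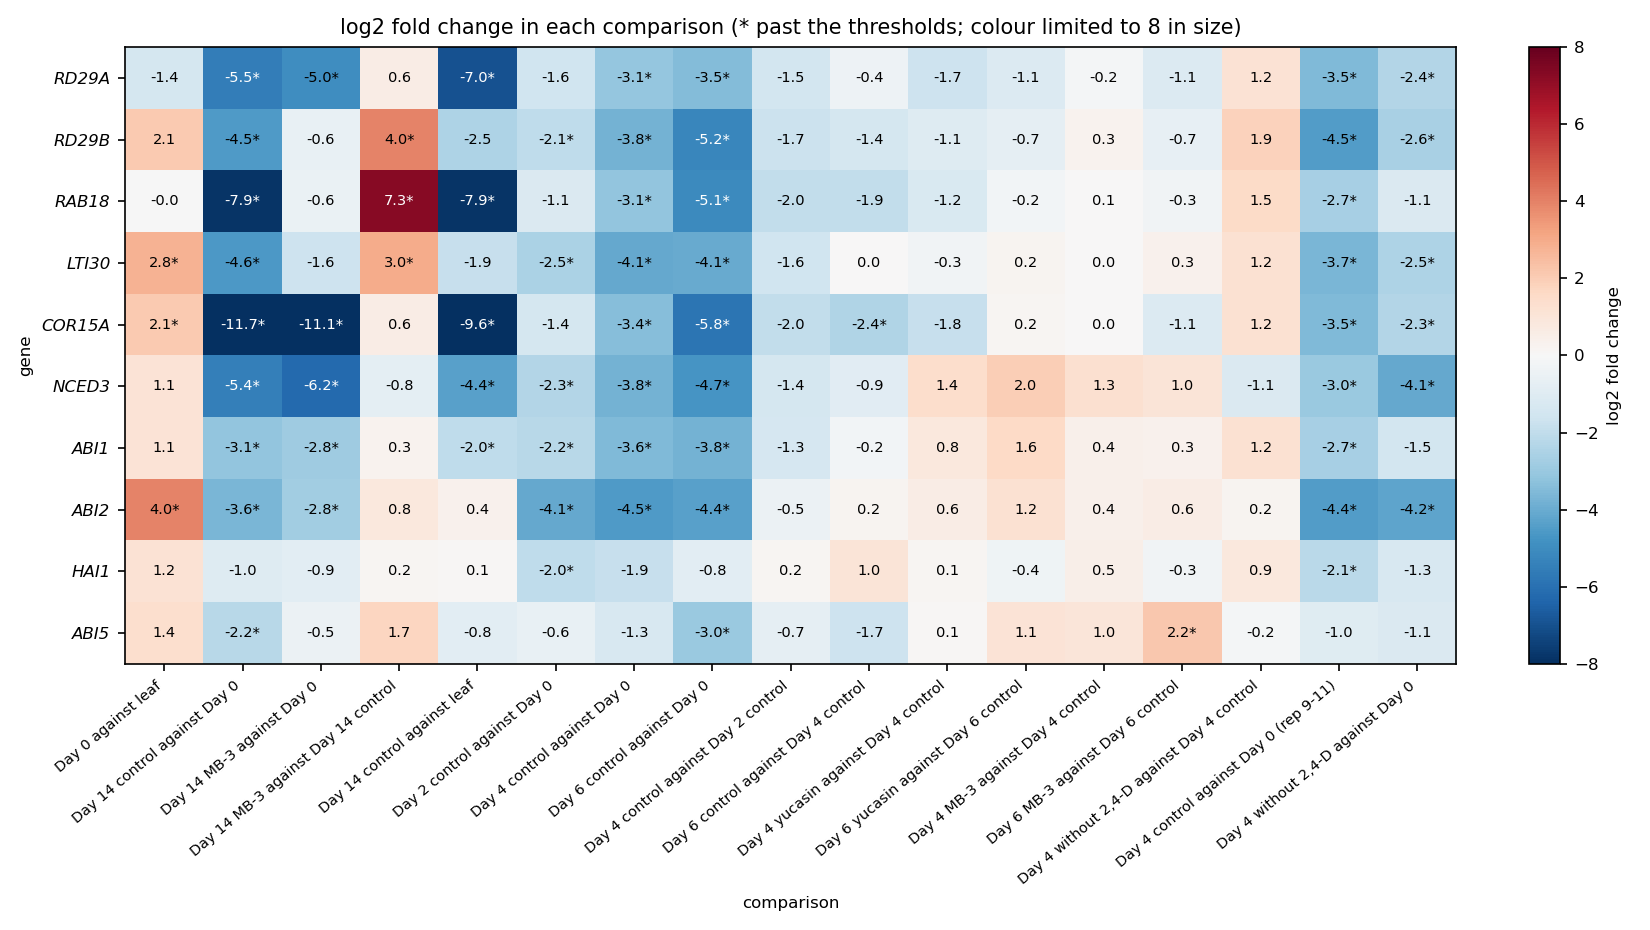
Log2 fold changes of the 10 genes (rows) in 17 comparisons (columns), where red is higher and blue lower in the group named first and an asterisk marks values past the thresholds. RAB18 rose by 7.30 with MB-3 at Day 14, where COR15A had 0.62. Values against Day 0 are relative to the TMM scaling, and with total counts the signs of 16 of the values turned, none of them past the thresholds.

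The Day 4 and Day 6 cultures asked what the inhibitors change early in culture. With yucasin none of the 10 genes was called by edgeR or DESeq2 at Day 4 or Day 6, against 3.61% and 12.9% of all genes called. Of the 10, 6 and 5 had an unadjusted p under 0.05, and the shares of all genes at that p are not given here. NCED3 was nearest to the thresholds. It had 7.40, 12.1 and 4.75 CPM in the Day 4 control and 21.7, 27.6 and 15.9 CPM with yucasin (1.42 ± 0.31, adjusted p = 0.00169), and 3.42, 4.95 and 4.41 CPM in the Day 6 control and 14.0, 15.7 and 20.5 CPM with yucasin (1.97 ± 0.34, adjusted p = 2.59e-05). The groups did not overlap on either day, and the Day 6 difference passed the threshold without Day 6 control replicate 7 (2.04) or yucasin replicate 6 (2.09) or 7 (2.01). ABI1 had 29.3, 27.9 and 28.2 CPM in the Day 6 control and 73.8, 96.0 and 84.1 CPM with yucasin (1.57 ± 0.21, adjusted p = 9.11e-07), and ABI2 had 13.7, 15.0 and 17.0 against 30.9, 38.9 and 35.6 CPM (1.20 ± 0.21, adjusted p = 3.25e-05). Neither gene overlapped between the groups, and both were below the fold threshold.

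None of the 5 effector genes was called with yucasin. RD29A had 36.8, 28.4 and 45.9 CPM in the Day 4 control and 12.8, 9.75 and 12.8 CPM with yucasin, all below the control (-1.66 ± 0.36, adjusted p = 0.00166), and COR15A had 91.3, 121 and 35.6 against 32.9, 28.7 and 9.03 CPM (-1.81 ± 0.59, adjusted p = 0.0286). RAB18 had -1.23 ± 0.42 at Day 4 and -0.24 ± 0.55 at Day 6, and LTI30 had -0.26 ± 0.31 and 0.21 ± 0.30. The ratio of NCED3 to RD29A was 0.0989 to 0.227 in the Day 6 control and 1.05 to 1.71 with yucasin. The effect of yucasin at Day 6 minus that at Day 4 was tested too, though the days share only replicate 6. None of the 10 genes was called for this difference by edgeR or DESeq2, against 3.40% of all genes called. Of the 10, 3 had an unadjusted p under 0.05, and the share of all genes at that p is not given here. COR15A had the largest value of this difference (1.97 ± 0.85, adjusted p = 0.0922). Guard cell markers summed to 86.0 to 93.4 CPM with yucasin at Day 6 and 10.8 to 19.2 CPM in the control, and epidermis markers to 47.7 to 110 and 2.97 to 7.06 CPM, with PDF1 at 0 in both groups, and vasculature markers to 9.94 to 24.9 and 34.6 to 36.6 CPM, with SWEET11 at 0 with yucasin. At Day 4 epidermis markers summed to 40.0 to 46.2 CPM with yucasin and 8.03 to 17.8 CPM in the control, with PDF1 at 0 in both. Guard cell markers summed to 26.6 to 41.5 and 20.2 to 23.7 CPM, and mesophyll markers to 532 to 664 and 407 to 454 CPM. Vasculature markers overlapped at Day 4, with APL, SWEET11 and SWEET12 at 0 with yucasin. The part of these markers' cell types in the values with yucasin was not tested at either day.

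With MB-3, ABI5 at Day 6 was the 1 gene called at these days, against 2.25% of all genes called higher and 1.97% called lower. It had 0.744, 1.27 and 1.42 CPM in the control, from 10, 18 and 19 counts, and 3.70, 5.42 and 6.16 CPM with MB-3, which lay above every control library (2.18 ± 0.33, adjusted p = 2.37e-05). The call was lost without Day 6 control replicate 6 (1.93) or MB-3 replicate 8 (1.99). Vasculature markers summed to 9.56 to 16.9 CPM with MB-3 and 34.6 to 36.6 CPM in the control at Day 6, with APL at 0 with MB-3, epidermis markers to 6.92 to 21.8 and 2.97 to 7.06 CPM, and guard cell markers to 15.3 to 30.1 and 10.8 to 19.2 CPM, and their part was not tested. At Day 4 none of the 10 genes was called by edgeR or DESeq2, against 1.30% of all genes called. Of the 10, 3 had an unadjusted p under 0.05, and the share of all genes at that p is not given here. ABI5 had 3.55, 4.57 and 2.72 CPM in the control and 6.73, 8.98 and 5.53 CPM with MB-3 (0.97 ± 0.27, adjusted p = 0.0309), and the effect at Day 6 minus that at Day 4 was 1.21 ± 0.43 (adjusted p = 0.126). By the same interaction none of the 10 was called, against 0.446% of all genes called, and the days share only replicate 6. Of the 10, 1 had an unadjusted p under 0.05, and the share of all genes at that p is not given here. NCED3 was above the control in every library with MB-3 at both days, with 17.1, 27.4 and 15.3 CPM at Day 4 (1.29 ± 0.31, adjusted p = 0.01) and 5.95, 9.24 and 10.4 CPM at Day 6 (1.03 ± 0.34, adjusted p = 0.027).

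RAB18, RD29B and LTI30, which were higher with MB-3 at Day 14, were not called with MB-3 at Days 4 and 6. RAB18 had 10.9, 10.9 and 4.74 CPM with MB-3 at Day 4 (0.05 ± 0.37) and 1.45, 2.66 and 1.34 CPM at Day 6 (-0.31 ± 0.53), overlapping with the control on both days. The replicate numbers paired these libraries too, and with MB-3 7 of the 10 genes, RAB18 and RD29B among them, were higher in all 3 pairs at Day 4 and none lower, against 28.1% and 27.7% of all genes. At Day 6 the counts were 5 higher and 2 lower, against 30.8% and 34.7%, and with yucasin at Day 4 they were 4 and 4, against 30.8% and 32.0%. With total counts as the scale the RAB18 log2 fold change with MB-3 at Day 4 turned to -0.0019, and pairs were not counted on that scale. RD29B had 0.31 ± 0.56 and -0.68 ± 0.98, the latter from 1 to 5 counts per library with MB-3, and LTI30 had 0.03 ± 0.30 and 0.32 ± 0.30. The Day 14 cultures have other replicate numbers and were fitted by themselves, so the effects at Day 14 and at the earlier days were not compared by a test. Of the other abscisic acid genes, CYP707A1 was higher at Day 6 with MB-3 (94.8 to 136 against 14.5 to 21.8 CPM, 2.56 ± 0.24) and with yucasin (83.1 to 95.5 CPM, 2.27 ± 0.24). NCED2, a relative of NCED3, was at 6.47 to 13.8 CPM in the Day 6 control and 34.9 to 58.9 CPM with yucasin (2.21 ± 0.27), and PYL6 (2.98 ± 0.35) and LEA4-5 (2.20 ± 0.32), 1 of the other effector genes, were higher with yucasin too.

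The comparison at Day 4 without 2,4-D asked what the auxin in the medium changes. None of the 10 genes was called against the Day 4 control by edgeR or DESeq2, against 3.39% of all genes called. Of the 10, 7 had an unadjusted p under 0.05, and the share of all genes at that p is not given here. The replicate numbers paired the libraries of these groups, and within the pairs 7 of the 10 genes were higher without 2,4-D in all 3 pairs and 1 was lower, against 32.8% and 33.5% of all genes. The 7 were the 5 effector genes, ABI1 and HAI1. RAB18 had 5.23, 16.8 and 18.9 CPM in control replicates 9, 10 and 11 and 16.1, 38.4 and 63.4 CPM without 2,4-D, so that replicate 9 was lowest in both groups (1.54 ± 0.58, adjusted p = 0.0753; with a block for the replicate number 1.52, adjusted p = 0.00181). RD29B had 1.22, 2.34 and 3.38 CPM in the control and 2.39, 7.60 and 15.2 CPM without 2,4-D (1.87 ± 0.66, adjusted p = 0.0649), and was called without replicate 9 of the group without 2,4-D (2.33). COR15A had 44.4, 96.7 and 108 against 132, 229 and 206 CPM (1.19 ± 0.36, adjusted p = 0.0388), and ABI1 had 23.9, 54.2 and 51.4 against 71.5, 116 and 109 CPM (1.20 ± 0.32, adjusted p = 0.0283). The groups of the latter 2 genes did not overlap. Apart from the block value of RAB18, the p-values of this comparison leave the pairing out. Block values of the other genes are not given here, so RAB18 is not set apart from them by its own. With the block none of the 10 genes was called either.

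NCED3 was the gene that was lower in all 3 pairs. It had 5.01, 12.9 and 10.7 CPM in the control and 2.50, 5.67 and 4.70 CPM without 2,4-D (-1.14 ± 0.39, adjusted p = 0.0595), and the groups overlapped through control replicate 9. Its ratio to RD29A was 0.26 to 0.319 in the control and 0.0536 to 0.0703 without 2,4-D. ABI2 had 10.4, 18.5 and 15.4 against 9.14, 19.3 and 23.1 CPM (0.22 ± 0.33), and ABI5 had 2.87, 3.51 and 4.33 against 4.46, 1.93 and 3.01 CPM (-0.17 ± 0.36), both with overlap. The ratio of ABI2 to ABI1 was 0.30 to 0.436 in the control and 0.128 to 0.212 without 2,4-D. NCED2 was the 1 gene called among the other abscisic acid genes, at 1.91 to 2.25 CPM in the control and 7.73 to 51.9 CPM without 2,4-D (3.77 ± 0.61, adjusted p = 0.0037). Guard cell markers summed to 52.8 to 82.1 CPM without 2,4-D and 18.9 to 45.7 CPM in the control, mesophyll markers to 385 to 519.7 and 280.1 to 355 CPM, and vasculature markers to 0.749 to 0.762 and 3.40 to 12.2 CPM, with APL at 0 without 2,4-D, and their part was not tested.

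**Figure D5:**
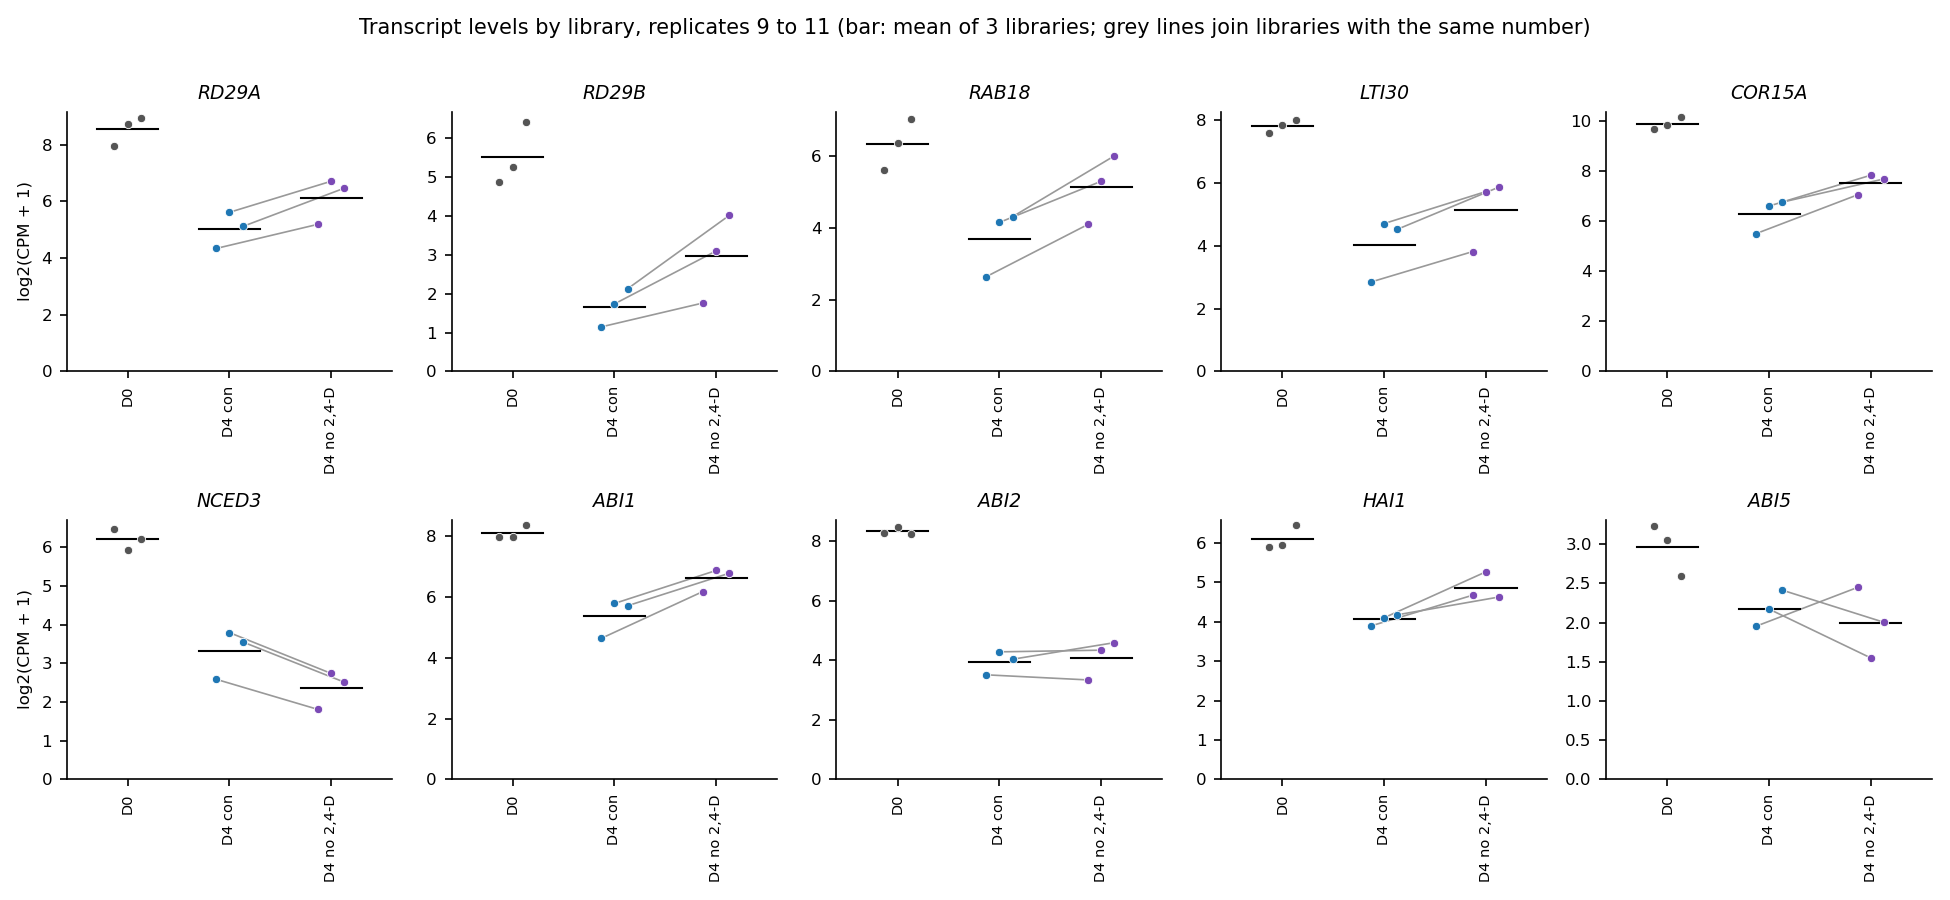
Levels of the 10 genes in replicates 9 to 11, as log2(CPM + 1) on the vertical axis of each panel, for Day 0, the Day 4 control and Day 4 without 2,4-D. Each point is a library, each bar the mean of 3 libraries, and grey lines join libraries with the same replicate number. RAB18 was at 5.23 to 18.9 CPM in the control and at 16.1 to 63.4 CPM without 2,4-D, and NCED3 was at 5.01 to 12.9 and 2.50 to 5.67 CPM.

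Against Day 0 in replicates 9 to 11, 9 genes were called lower in the Day 4 control and 6 without 2,4-D, against 11.1% and 6.15% of all genes called lower. None was called higher, against 24.0% and 16.9% of all genes. Both comparisons share the Day 0 libraries, and with total counts as the scale 5 and 2 of the 10 genes were called. Of all 17665 genes tested, 619 and 390 were called lower on that scale, against 1954 and 1087 with TMM. ABI2 was again the most reduced phosphatase gene (-4.45 ± 0.37 in the control and -4.23 ± 0.37 without 2,4-D). NCED3 had -2.96 ± 0.38 and -4.10 ± 0.41. RAB18 (-2.67 ± 0.59 and -1.14 ± 0.56), ABI1 (-2.69 ± 0.34 and -1.49 ± 0.32) and HAI1 (-2.13 ± 0.25 and -1.26 ± 0.24) were called in the control alone, and HAI1 lost that call without Day 0 replicate 11 (-1.93). With total counts all 3 lost it (-1.62, -1.63 and -1.07), as did NCED3 in the control (-1.91). The test between the control and the culture without 2,4-D called none of these genes. Without 2,4-D the calls of RD29A (-2.36), RD29B (-2.62) and LTI30 (-2.46) each depended on single libraries. RD29A lost its call without replicate 9 of that group (-1.99), RD29B without replicate 10 of that group (-2.57) or Day 0 replicate 11 (-2.03), and LTI30 without Day 0 replicate 10 (-2.47) or 11 (-2.37).

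Across the 26 libraries of replicates 4 to 8, the loci most like each gene in log2(CPM + 1) were found among 17727 loci with a mean of at least 1 CPM, as a description only, since the libraries share the same large decline. RD29A was most like COR47 (Pearson r = 0.976), ERD10 (0.965) and KIN1 (0.963), and COR15A was most like AT2G43620 (0.978), its near copy COR15B (0.977) and OEP16-1 (0.977). RAB18 was most like MAPKKK5 (0.986), OEP16-1 (0.983) and LEA7 (0.980). ABI1 was most like TIL (0.991) and ABI2 most like AT1G79160 (0.989), RD29B most like DL1E (0.985), LTI30 most like AT2G45910 (0.986) and NCED3 most like AT4G22530 (0.981). HAI1 (AT5G48480, 0.911) and ABI5 (AT4G20970, 0.898) had less similar partners. Among the 10 genes the highest value was between RAB18 and COR15A (0.969) and the lowest between HAI1 and ABI5 (0.221).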

How the data were processed

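RNA was sequenced from leaves and protoplasts with a stranded mRNA kit. The authors deposited raw counts of reads per splice variant for each library. The submitters' processing notes name bcl2fastq, Bowtie 0.12.9 and the TAIR10 build, the study's methods describe the mapped reads as unique, and the counting of reads at overlapping loci is not given in the sources used here. Promoters were read from RefSeq TAIR10.1.

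Counts of splice variant 1 were tested with edgeR 4.0.16 (R 4.3.3), with TMM scaling, its default filter on low counts, and all groups of an experiment in each fit. Calls needed a log2 fold change over 2 in size with p and adjusted p under 0.01. The fit was tested on simulated data. Floors cover counting error only. Alternatives were DESeq2 1.42.0, a likelihood-ratio test, total-count scaling, no filter, all splice variants, a replicate block, and leaving out each library. All 10 genes are named, with at most the 3 largest called changes per list of other genes and the 3 most similar loci. The genes and lists were chosen with earlier results of these data known.

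Same-numbered libraries deviated together in every pair (correlation over 0.1) between control and yucasin at Day 4 (mean r = 0.303), MB-3 at Day 4 (0.362), MB-3 at Day 6 (0.360) and the culture without 2,4-D (0.432). This pairing comes from the data, since no label states it. The main fit held no block, so p-values of these comparisons leave the pairing out except where a block is named.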

Additional observations from a re-analysis of the deposited data

Results flagged for a closer look

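ABI2 in Day 0 replicate 6 was at 269 CPM, further below the other 4 libraries of that group (318 to 329 CPM) than their spread would give under a test for single outlying values. Chance flags about 1 in 20 groups, and 10 were tested.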

How the results depend on the processing

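The use of all splice variants kept direction and call in all 112 gene and comparison pairs followed. DESeq2 kept 111, and the likelihood-ratio test and leaving out the filter 110 each, and all 3 added a call of RD29B in the Day 14 control against leaf, a pair followed after its values were seen, as was LTI30 in that comparison. Total-count scaling kept 89, weakened 21, strengthened 1 and turned the direction of 1, HAI1 at Day 6 against Day 0 (0.27). Among all values of the 10 genes others turned too. At Day 14 with MB-3 against Day 0 there were 4, those of RD29B, RAB18, HAI1 and ABI5, none past the thresholds. With total-count scaling the number of the 10 genes called against Day 0 fell to 3 at Day 14 with MB-3 and to 1 at Day 2. In replicates 9 to 11 it fell to 5 in the Day 4 control and 2 without 2,4-D. In these comparisons fewer of all genes were called lower on that scale too, as given above. Without the 6 libraries with reads at many silent loci, 0 were called between MB-3 and control at Day 14, where the control then had 1 library. The likelihood-ratio test called 1 from Day 2 to Day 4. The replicate block took the count from Day 4 to Day 6 to 0, where the groups share 1 number, and changed no other call.

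Leaving out single libraries gave 2 to 4 genes called for Day 0 against leaf, 8 to 9 and 5 to 6 for the Day 14 control and MB-3 against Day 0, 1 to 3 for MB-3 against control at Day 14, and 4 to 5 for the Day 14 control against leaf. It gave 4 to 7, 8 to 9 and 9 to 9 at Days 2, 4 and 6 against Day 0, 0 to 3 from Day 2 to 4 and 0 to 2 from Day 4 to 6. It gave 0 to 1 for yucasin at Day 6, MB-3 at Day 6 and the culture without 2,4-D, and 8 to 9 and 4 to 6 for the Day 4 control and the culture without 2,4-D against Day 0 in replicates 9 to 11. Total-count scaling moved the share of all called genes that were higher in the Day 14 control than at Day 0 from 60.4% to 88.2%. Depth limits RD29B, RAB18 and COR15A most, with 0 counts of RD29B in Day 6 yucasin replicate 6 and 2 counts of RAB18 and of COR15A in Day 14 control replicate 2. The cause of these changes was not tested.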

Other observations

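Other genes of hormone turnover also differed between days. NCED2, a gene of abscisic acid synthesis, fell with MB-3 at Day 4 (0.626 to 1.68 against 3.64 to 7.40 CPM, log2 fold change -2.35 ± 0.36), and its effect of MB-3 at Day 6 minus that at Day 4 was 2.15 ± 0.46. The same difference for yucasin was 2.99 ± 0.42. ABCG25, a gene for an exporter of the hormone, was lower with yucasin at Day 6 (-2.39 ± 0.75).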
